A study of Mus musculus with 40 samples.

Results

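The proteasome genes of whole mouse lung were followed after airway allergen. The members were the genes whose platform symbol begins with Psm, then a letter from a to g and a digit, which took in 48 of the 12393 genes tested. The 4 measured genes of the immune form and its interferon-inducible activator, Psmb8, Psmb9, Psmb10 and Psme1, were set apart from 42 standard subunits, activators and assembly chaperones. The other 2, Psmc3ip and Psme3ip1, match by name and encode partner proteins rather than subunits. A further gene to be set apart, Psme2, was represented by 1 probe set that the platform annotation gives to both Psme2 and Psme2b. It is reported as that shared probe set, outside the fit by gene.

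The study crossed strain (AJ or C3H), treatment by aspiration (allergen in PBS, or PBS alone) and time after it (6 h or 24 h), with 5 one-colour arrays in each of 8 groups. The groups were AJ with allergen at 6 h, AJ with PBS at 6 h, AJ with allergen at 24 h, AJ with PBS at 24 h, and the same 4 in C3H. The titles abbreviate the allergen as OVA and the descriptions as HDM, so it is called allergen here. The descriptions call AJ hyperresponsive and name that strain for all 40 arrays, and strain was therefore read from the titles. The labels used here give no age, sex or sensitisation schedule. Whether the 5 arrays of a group came from different animals is not stated either, and the p-values cover the spread among arrays, which may be technical.

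The proteasome degrades proteins tagged with ubiquitin. Its barrel-shaped core is closed by alpha subunits and cuts with 3 of its beta subunits, Psmb5, Psmb6 and Psmb7, and a regulatory cap of ATPase (Psmc) and non-ATPase (Psmd) subunits unfolds and feeds in the substrate. Interferon gamma induces Psmb8, Psmb9 and Psmb10, which take the places of Psmb5, Psmb6 and Psmb7 in newly assembled cores, and Psme1 and Psme2, which form the PA28 activator. The resulting immunoproteasome shapes the peptides that class I MHC molecules present, and its subunits are also constitutively abundant in leukocytes. In lung the RNA of resident cells and of recruited leukocytes is mixed, so a greater number of cells expressing a gene and more RNA per cell cannot be told apart.

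The promoters of the immune members are shown because interferon acts on them through short elements. RefSeq windows of build GRCm38.p6, from 250 bases before to 50 after the start of transcription, were found for 40 of the 48 members, with the most upstream window kept where a gene had several. Capitals mark a match to the gamma-activated sequence TTCNNNGAA or to the core of the interferon-stimulated response element, taken as GAAA, any 2 bases and GAAA again, both searched on either strand.
Psmb8 promoter, chr17:34197945-34198244, plus strand: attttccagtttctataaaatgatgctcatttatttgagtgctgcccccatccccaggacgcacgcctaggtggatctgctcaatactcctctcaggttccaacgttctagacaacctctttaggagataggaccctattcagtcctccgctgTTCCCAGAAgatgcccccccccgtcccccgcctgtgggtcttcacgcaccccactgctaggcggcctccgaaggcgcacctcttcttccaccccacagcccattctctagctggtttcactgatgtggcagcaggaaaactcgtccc
Psmb9 promoter, chr17:34187281-34187580, minus strand: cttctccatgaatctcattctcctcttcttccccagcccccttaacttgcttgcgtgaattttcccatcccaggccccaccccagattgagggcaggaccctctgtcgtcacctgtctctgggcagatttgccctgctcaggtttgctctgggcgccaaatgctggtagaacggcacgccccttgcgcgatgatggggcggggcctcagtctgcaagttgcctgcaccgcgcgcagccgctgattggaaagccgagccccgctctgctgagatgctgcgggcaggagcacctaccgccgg
Psmb10 promoter, chr8:105938343-105938642, minus strand: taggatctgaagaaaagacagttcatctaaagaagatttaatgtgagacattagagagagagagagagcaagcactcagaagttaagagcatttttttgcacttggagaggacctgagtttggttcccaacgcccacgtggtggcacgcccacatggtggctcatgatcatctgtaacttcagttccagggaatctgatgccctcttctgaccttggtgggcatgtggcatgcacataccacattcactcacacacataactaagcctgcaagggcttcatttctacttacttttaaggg
Psme1 promoter, chr14:55578244-55578543, plus strand: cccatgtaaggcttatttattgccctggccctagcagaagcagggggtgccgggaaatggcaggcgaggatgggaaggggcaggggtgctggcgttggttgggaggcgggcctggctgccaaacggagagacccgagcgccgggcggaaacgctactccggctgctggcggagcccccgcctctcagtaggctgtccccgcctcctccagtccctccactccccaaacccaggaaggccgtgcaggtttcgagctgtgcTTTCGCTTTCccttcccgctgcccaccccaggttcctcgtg
The Psmb8 window held TTCCCAGAA starting 97 bases before the start site (position -97), and the Psme1 window held TTTCGCTTTC, the second element read on the opposite strand, from position 9 after it. The Psmb9 and Psmb10 windows held neither spelling, which says only that these letters are absent from these windows. Of all 27025 promoter windows, 8.42% held the gamma-activated spelling and 3.49% the core of the response element. Among 34 standard members, 2 held the first and 4 the second. A match is a description of letters and was not tested as a binding site.

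Values are array intensities on the authors' scale. Differences are on the scale of log2(intensity + 16), on which they understate the change of dim genes. Adjusted p-values are from limma with Benjamini-Hochberg adjustment over all 12393 genes, and a gene is said to have risen or fallen where its adjusted p was under 0.05. Errors of differences are standard errors (SE). The members were mostly bright: Psmb7 averaged an intensity of 1231, Psme1 826, Psmb8 404, Psmb10 340.3 and Psmb9 277. These levels come from different probe sets and are not compared with each other. Psma8, a testis form of an alpha subunit, was dim, with 18 of 40 arrays below the added 16. Between arrays, correlations over all probe sets ran from 0.875 to 0.985. The mean log2 level of the alveolar epithelial markers (9 of 10 measured, among them the surfactant proteins) averaged between 11.31 and 11.64 in the groups, and so the arrays carry the markers of the labelled tissue.

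After allergen the immune members were higher on average than with PBS in both strains at both times, and Psmb8 rose in 3 of the 4 comparisons. At 24 h its log2 change was 0.58 ± 0.13 in AJ, an estimated 1.49-fold, and 0.75 ± 0.13 in C3H, 1.68-fold. Psmb10 rose in C3H at 24 h by 0.73 ± 0.17 and Psmb9 in C3H at 6 h by 0.49 ± 0.15. None of the 4 passed in limma in AJ at 6 h, where 0 had an unadjusted p under 0.05. The median change of the 4 immune members was 0.19, 0.33, 0.40 and 0.59 in AJ at 6 h, AJ at 24 h, C3H at 6 h and C3H at 24 h, against -0.01, 0.12, 0.08 and 0.17 for the 42 standard members and -0.07, -0.00, -0.00 and -0.04 for all genes.

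Psmb8 encodes the chymotrypsin-like subunit that replaces Psmb5. In AJ at 24 h its intensities were 334, 384, 290.0, 300.3 and 388 with PBS and 503, 651, 474, 458 and 486 with allergen. The groups did not overlap, and replicate 2 of the allergen group stood highest. The change had an adjusted p of 0.00372 in limma, in a comparison in which 7.84% of all genes passed and 4.56% were called higher, and Psmb8 was the 1 member called of 48. In C3H at 24 h the Psmb8 intensities were 333, 316, 341, 320.2 and 298 with PBS and 680.0, 689.9, 413, 516 and 514 with allergen. All 5 allergen arrays lay above all 5 PBS arrays, with replicate 3 the lowest of them. The limma adjusted p was 0.000508. In that comparison 3 of 48 members rose, where 3.24% of genes passed and 2.1% were called higher.

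At 6 h the Psmb8 groups overlapped in both strains. In C3H the intensities were 322, 397, 295, 254 and 319.5 with PBS and 433, 493, 383, 461 and 384 with allergen. Only PBS replicate 2 lay inside the allergen range. The change was 0.43 ± 0.13 (limma adjusted p = 0.0411), where 3 members rose, 7.62% of genes passed and 3.93% were called higher. That call did not hold on leaving out any of 7 of the 10 arrays, with limma adjusted p up to 0.13: replicates 1, 3, 4 and 5 of the PBS group and replicates 1, 2 and 4 of the allergen group. It was also lost with median centring, with the arrays of that comparison alone and when adjusted over all probe sets. In AJ at 6 h they were 318, 336, 458, 294 and 323 with PBS and 437, 502, 348, 369.6 and 334 with allergen, with PBS replicate 3 above 4 of the allergen arrays. There the change was 0.20 ± 0.13 and did not pass.

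**Figure D1:**
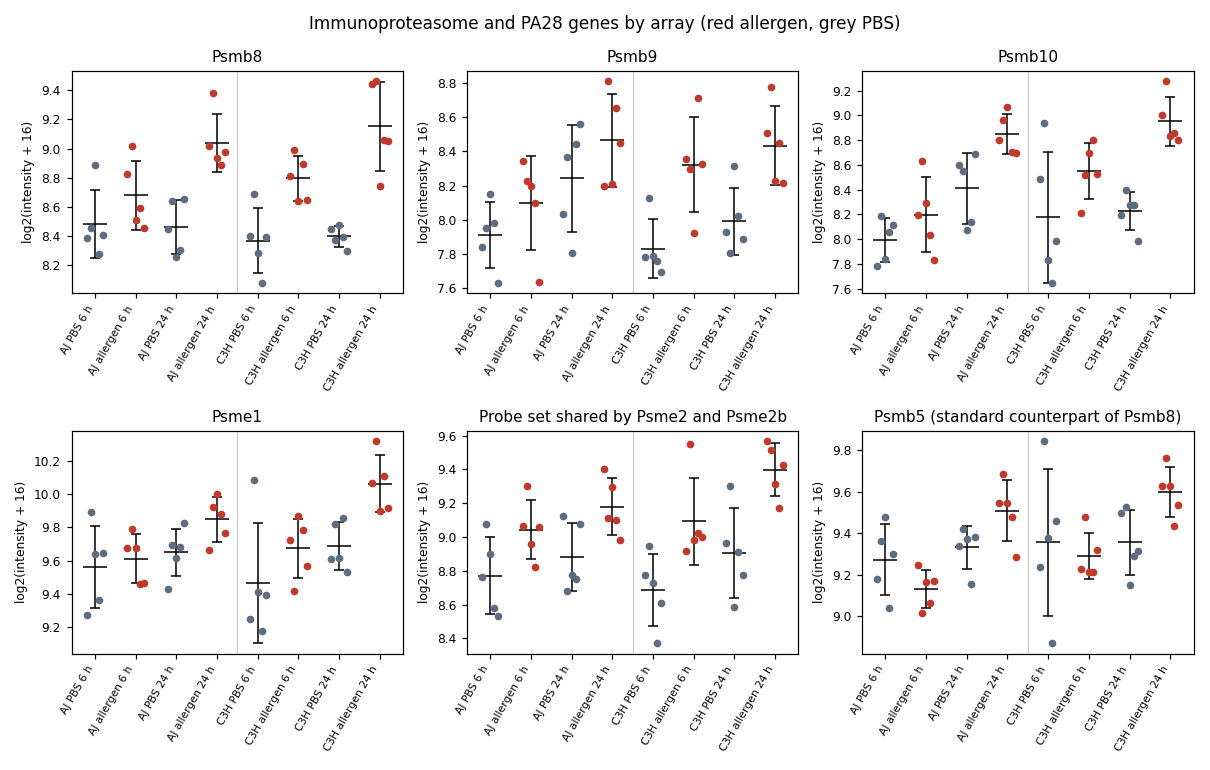
Log2(intensity + 16) of Psmb8, Psmb9, Psmb10, Psme1, the probe set shared by Psme2 and Psme2b, and Psmb5, for each of 40 arrays in 8 groups (red allergen, grey PBS), with horizontal bars at the mean and whiskers of 1 SD, n = 5. The red points of Psmb8 at 24 h lie above the grey points in both strains, and in C3H with PBS at 6 h replicate 2 stands high in most panels.

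Psmb9 encodes the subunit that replaces the caspase-like Psmb6 and lies beside Psmb8 on chromosome 17. In C3H at 6 h its intensities were 204, 264, 205, 201 and 191 with PBS and 311, 299, 227, 404 and 305 with allergen. Allergen replicate 3 fell inside the PBS range and PBS replicate 2 inside the allergen range. The change of 0.49 ± 0.15 had a limma adjusted p of 0.0411, and it passed again when either PBS replicate 2 or allergen replicate 3 was left out but not without any 1 of the other 8 arrays (up to 0.141). Median centring, a fit on only the arrays of the contrast and adjustment over all probe sets also ended the call (limma adjusted p of 0.0726, 0.105 and 0.0504). At 24 h in C3H the intensities were 228, 207, 303, 243 and 221 with PBS and 348, 423, 283, 333 and 281 with allergen, a change of 0.44 ± 0.15 with an adjusted p of 0.105 in limma. In AJ the changes were 0.19 ± 0.15 at 6 h and 0.22 ± 0.15 at 24 h. The PBS arrays of AJ at 24 h were spread from 208 to 362, and all but 2 of the 5 allergen arrays lay within that range.

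Psmb10 encodes the subunit that replaces the trypsin-like Psmb7. In C3H at 24 h its intensities were 278, 320.3, 295, 295 and 237 with PBS and 498, 605, 439, 448 and 429 with allergen. No array of either group lay in the range of the other, and allergen replicate 2 stood highest. The change of 0.73 ± 0.17, 1.66-fold, had a limma adjusted p of 0.0128. Without that array it was 0.65, with an adjusted p of 0.0566 in limma. In AJ at 24 h Psmb10 read 373, 359, 254, 265 and 397 with PBS and 429, 484, 519, 402 and 399 with allergen. These groups did not overlap either, which made 2 of the 4 immune members, against 4.82% of all genes that lay wholly higher there. The lowest allergen array exceeded the highest PBS array by little. The change of 0.44 ± 0.17 did not pass (limma adjusted p = 0.132). In C3H at 6 h the Psmb10 intensities were 344, 476, 213, 184 and 237 with PBS and 279.9, 350.5, 399.7, 431 and 353 with allergen. PBS replicate 2 was the highest of the 10 arrays. The change of 0.37 ± 0.17 did not pass with it and was 0.56 (limma adjusted p = 0.0251) without it, when 3 of the 4 immune members passed in C3H at 6 h.

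PA28 is built from the products of Psme1 and Psme2. In C3H at 24 h Psme1 read 767, 890.1, 768, 909.7 and 724 with PBS and 1059, 1261, 938, 1089 and 952 with allergen. All 5 allergen arrays were above the PBS arrays, so that 3 of the 4 immune members did not overlap there, against 2.59% of all genes that lay wholly higher. Yet the change of 0.38 ± 0.13 had a limma adjusted p of 0.105. Its other changes were 0.05 in AJ at 6 h, 0.20 in AJ at 24 h and 0.21 in C3H at 6 h, each ± 0.13, and none passed. The highest of the 5 Psme1 arrays in C3H with PBS at 6 h was again replicate 2, at 1071 against 563 to 667 in the other 4.

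The probe set shared by Psme2 and Psme2b was tested among 22626 probe sets in a fit added after the data were seen. In C3H at 24 h it read 483, 615, 367, 466 and 422 with PBS and 742, 716, 619, 561 and 673 with allergen. Only PBS replicate 2 lay within the allergen range. The change was 0.49 ± 0.13 with an adjusted p of 0.0415 in limma, so that it rose there. In the remaining comparisons it was 0.41 in C3H at 6 h (adjusted p = 0.0688 in limma), 0.30 in AJ at 24 h and 0.27 in AJ at 6 h, and these did not pass.

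Leukocyte markers rose in the same comparisons. Of all genes, 7.03%, 4.56%, 3.93% and 2.1% were called higher in AJ at 6 h, AJ at 24 h, C3H at 6 h and C3H at 24 h. Of 10 common leukocyte genes, Ptprc and Cd52 among them, 10 rose in AJ at 6 h, 9 in AJ at 24 h, 5 in C3H at 6 h and 6 in C3H at 24 h. Their mean log2 level lay between 9.05 and 9.60 on the allergen arrays of AJ at 6 h against 8.14 to 8.30 with PBS, and between 9.09 and 9.62 against 8.28 to 8.45 in AJ at 24 h. In C3H it lay between 9.11 and 9.74 against 8.42 to 8.81 at 6 h, and between 8.94 and 9.80 against 8.46 to 8.67 at 24 h. The median marker change was 1.06, 1.03, 0.67 and 0.65 in AJ at 6 h, AJ at 24 h, C3H at 6 h and C3H at 24 h. The part of leukocytes in the rise of Psmb8 was not tested. In AJ at 24 h, where 406 of 12393 genes were called lower, 8 of 17 cardiac and skeletal muscle markers fell as well. Their mean log2 level lay between 7.0 and 7.82 with allergen and between 8.36 and 9.11 with PBS. With that mean as a covariate Psmb8 was 0.53 higher in AJ at 24 h (limma adjusted p = 0.0494) and Psmb9 0.04 higher.

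Within an array, the immune catalytic subunit can be set against the standard subunit whose place it takes, a difference in which a scale factor common to the array largely cancels, apart from the added 16. The differences between allergen and PBS in these log2 gaps were tested by two-sided exact permutation of 5 against 5 arrays, for which 252 splits allow a smallest p of 0.00794, and adjusted over 12 tests. Psmb8 gained on Psmb5 by 0.40 ± 0.10 in AJ at 24 h, from a mean gap of -0.87 with PBS to -0.47 with allergen (adjusted exact p = 0.0317). In C3H it gained 0.50 ± 0.10 at 6 h (adjusted exact p = 0.0317) and 0.51 ± 0.14 at 24 h (adjusted exact p = 0.0381). In AJ at 6 h the gain was 0.34 ± 0.14, with an adjusted exact p of 0.0635. The gaps with and without allergen did not overlap in AJ at 24 h or in C3H at 6 h and did in C3H at 24 h, where allergen replicate 3 had the lowest gap of its group at -0.88. Of the 10 arrays of C3H at 24 h, leaving out any of 8 raised the adjusted exact p above 0.05, to at most 0.0635; leaving out PBS replicate 3 or allergen replicate 3 did not.

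Psmb10 gained on Psmb7 by 0.47 ± 0.17 in AJ at 24 h (adjusted exact p = 0.0381) and by 0.53 ± 0.13 in C3H at 24 h (adjusted exact p = 0.0317), where the gaps did not overlap. In AJ at 24 h that pass was lost in 7 of 10 leave-outs, namely any of the 5 allergen arrays and PBS replicates 3 and 4. At 6 h the gains of Psmb10 were 0.16 ± 0.15 in AJ and 0.28 ± 0.26 in C3H and did not pass. For Psmb9 against Psmb6 the gain was 0.10, 0.23, 0.46 and 0.21 in AJ at 6 h, AJ at 24 h, C3H at 6 h and C3H at 24 h, none of which passed, and the value in C3H at 6 h had an adjusted exact p of 0.068.

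**Figure D2:**
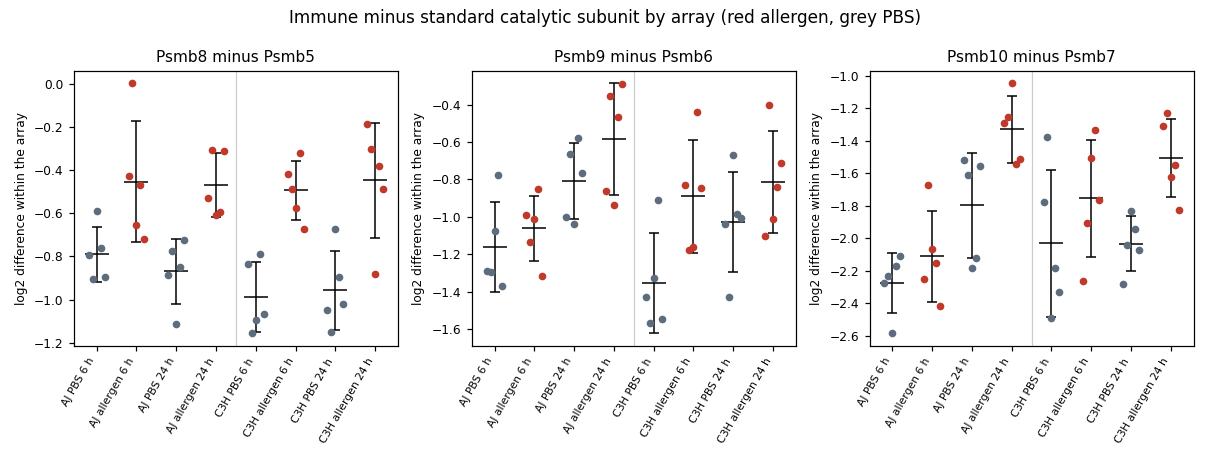
Difference in log2(intensity + 16) between each immune catalytic subunit and its standard counterpart within each array, for 8 groups of 5 arrays (red allergen, grey PBS), with bars at the mean and whiskers of 1 SD. The gap of Psmb8 to Psmb5 averaged -0.87 with PBS and -0.47 with allergen in AJ at 24 h.

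The standard counterparts themselves did not pass in any allergen comparison. Psmb5 changed by -0.14, 0.18, -0.07 and 0.24, each ± 0.12, in AJ at 6 h, AJ at 24 h, C3H at 6 h and C3H at 24 h. In the same order Psmb6 changed by 0.09, -0.00, 0.03 and 0.23 (± 0.14) and Psmb7 by 0.04, -0.03, 0.09 and 0.20 (± 0.10). Psme3, which encodes the nuclear activator related to PA28, changed by -0.07, -0.08, 0.10 and -0.12 (± 0.16). Psme4, the large single-chain activator, changed by -0.21, 0.28, 0.28 and -0.18 (± 0.18). Other probe sets of these genes, nearly as bright, differed in part. For Psme3 such a set changed by -0.06, 0.30, 0.21 and -0.28 (± 0.23). For Psme4 it changed by -0.16, 0.18, 0.23 and 0.02 (± 0.17), and none of these passed.

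Few standard members passed in the allergen comparisons. In AJ at 6 h, 1 rose and 2 fell of 42, which were the 3 called of all 48 members. Of all genes 19% passed there, 7.03% higher and 12% lower. In AJ at 24 h, where 7.84% of all genes passed and 4.56% were called higher, none of 42 passed in limma. Of the 42, 5 had an unadjusted p under 0.05 in limma there, all higher: Psma2, Psma4, Psma5, Psma6 and Psmg1. In C3H 1 of 42 rose at each time, Psmg1 at 6 h and Psmd13 at 24 h, where 7.62% and 3.24% of all genes passed in either direction. An unadjusted p under 0.05 in limma was reached by 5 higher and 1 lower of the 42 at 6 h and by 10 at 24 h, all higher. The share of all genes at an unadjusted p under 0.05 was not counted, so counts at that threshold have no background here. At 24 h in C3H 35 of 42 were on the higher side, against 5126 of 12393 genes.

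By position in the particle, the 7 core alpha subunits other than Psma8 had a median change of 0.10, 0.27, 0.15 and 0.18 in AJ at 6 h, AJ at 24 h, C3H at 6 h and C3H at 24 h. All 7 were above 0 at 24 h in both strains, and none passed in limma; the highest of them in AJ at 24 h was Psma2, at 0.45 ± 0.15 (adjusted p = 0.0671). The 7 standard beta subunits had medians of 0.01, -0.00, -0.04 and 0.23, and none passed. The 6 ATPases had medians of -0.08, 0.14, 0.10 and 0.19, with Psmc5 lower in AJ at 6 h. The 14 Psmd genes, which include chaperones of the cap, had medians of 0.04, 0.03, 0.04 and 0.14.

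**Figure D3:**
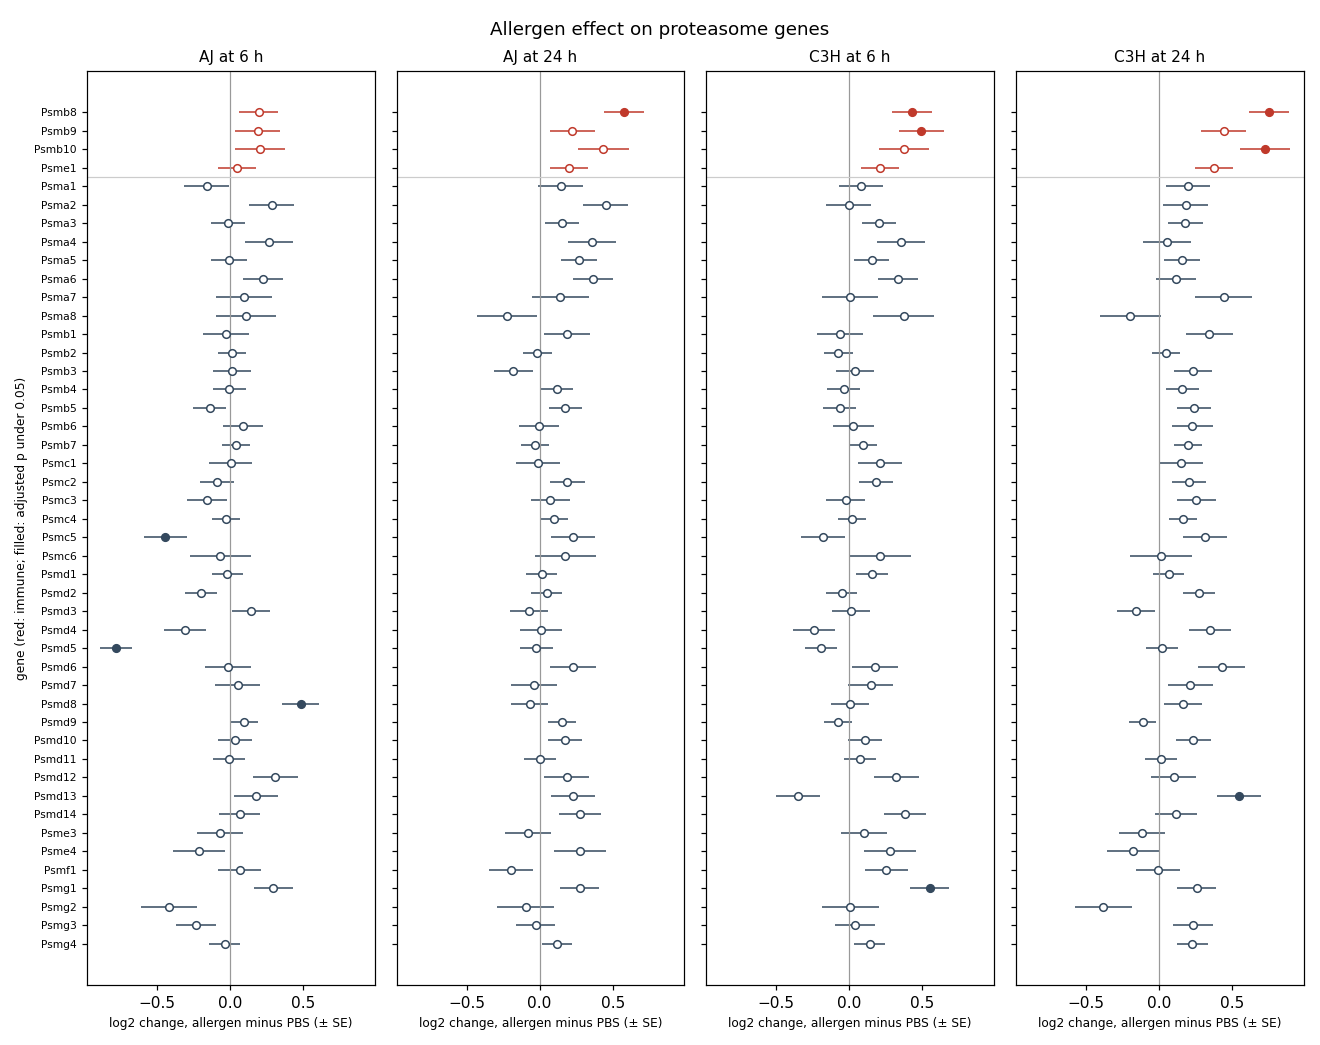
Log2 change, allergen minus PBS, with its standard error for the 46 proteasome genes (rows) in the 4 allergen comparisons (panels), with the immune members in red and filled points where the limma adjusted p was under 0.05. Filled immune points are Psmb8 in 3 panels, Psmb9 in C3H at 6 h and Psmb10 in C3H at 24 h, and the point farthest to the left is Psmd5 in AJ at 6 h.

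The largest change of a standard member was the fall of Psmd5, an assembly chaperone of the regulatory cap, in AJ at 6 h. Its intensities were 268, 336, 369.5, 243 and 233 with PBS and 192, 159, 152, 141 and 159 with allergen. The groups did not overlap, as in 7.92% of all genes that lay wholly lower with allergen there. The change was -0.78 ± 0.11 (limma adjusted p = 1.04e-06). In C3H at 6 h the Psmd5 intensities were 252, 251, 269, 233 and 241 with PBS and 224, 212, 217, 234 and 195 with allergen, and at 24 h in AJ they were 271, 223, 204, 269 and 234 with PBS and 231, 243, 264, 207 and 233 with allergen. These groups lay close together, the C3H allergen arrays mostly below the PBS arrays.

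The effect of allergen on Psmd5 differed from AJ to C3H at 6 h by 0.59 ± 0.16 (C3H minus AJ, limma adjusted p = 0.0322), where 2.15% of genes passed and Psmd5 was the 1 member that did. It differed between times in AJ by 0.76 ± 0.16 (24 h minus 6 h, limma adjusted p = 0.00181), where 5.62% of genes passed and it was again the 1 member. The difference between strains was lost in 10 of 20 leave-outs (limma adjusted p up to 0.083): AJ PBS replicates 2 and 3, AJ allergen replicates 2, 3 and 4, C3H PBS replicates 4 and 5, and C3H allergen replicates 1, 3 and 4. It was also lost with quantile normalization, with median centring and with only the arrays of the contrast in the fit (limma adjusted p of 0.0618, 0.128 and 0.0959). The difference between times passed in all 20 leave-outs.

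Psmd8, a subunit of the lid of the regulatory cap, rose in AJ at 6 h. Its intensities were 455, 467, 357, 391 and 448 with PBS and 588, 653, 678, 512 and 561 with allergen. The groups did not overlap, as in 5.62% of genes that lay wholly higher, and the change was 0.48 ± 0.13 (limma adjusted p = 0.0052). Psmc5, an ATPase of the cap, fell by 0.44 there (limma adjusted p = 0.0326), with intensities of 441, 318, 610.4, 389 and 432 with PBS and 246, 336, 327, 266 and 405 with allergen. The Psmc5 groups overlapped. Leaving out PBS replicate 1, 3 or 5, or allergen replicate 1 or 4, ended that call, with limma adjusted p up to 0.151. So did median centring (limma adjusted p = 0.0999) and a fit on only the arrays of the contrast (limma adjusted p = 0.113).

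Psmg1, a chaperone that helps assemble the ring of alpha subunits, rose in C3H at 6 h. Its intensities were 144, 167, 119.7, 114 and 119 with PBS and 189, 275, 156, 218 and 180.2 with allergen. The groups overlapped through PBS replicate 2 and allergen replicate 3. The change was 0.55 ± 0.13 (limma adjusted p = 0.00647) and passed in all 10 leave-outs. With only the 10 arrays of that comparison in the fit the limma adjusted p was 0.0855. Psmg1 was higher by 0.29 in AJ at 6 h, 0.28 in AJ at 24 h and 0.26 in C3H at 24 h, where it did not pass.

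Psmd13, another lid subunit, rose in C3H at 24 h. Its intensities were 207, 209, 198, 183 and 176 with PBS and 324, 283, 304, 213 and 349 with allergen. No PBS array reached the allergen range, and the change was 0.55 ± 0.15 (limma adjusted p = 0.0351). It passed in 2 of 10 leave-outs, without allergen replicate 4 or PBS replicate 2, with limma adjusted p up to 0.111 in the others, and it was lost with only the arrays of the contrast in the fit (0.0611). At 6 h in C3H the intensities were 254, 324, 224, 198 and 197 with PBS and 189.5, 222, 186, 151 and 165 with allergen, a change of -0.35 ± 0.15 that did not pass.

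The allergen effect on Psmd13 differed between times in C3H by 0.90 ± 0.21 (24 h minus 6 h, limma adjusted p = 0.0311), where 0.88% of genes passed and it was the 1 member. That call was lost in 11 of 20 leave-outs, with limma adjusted p up to 0.0706: PBS at 6 h replicates 1 and 2, allergen at 6 h replicates 1, 4 and 5, PBS at 24 h replicates 3, 4 and 5, and allergen at 24 h replicates 1, 3 and 5. It was also lost with only the arrays of the contrast in the fit and with the mean of all probe sets (limma adjusted p of 0.0574 and 0.0512). A second, dimmer probe set of Psmd13 changed by 0.12 at 24 h and by -0.01 at 6 h in C3H.

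**Figure D4:**
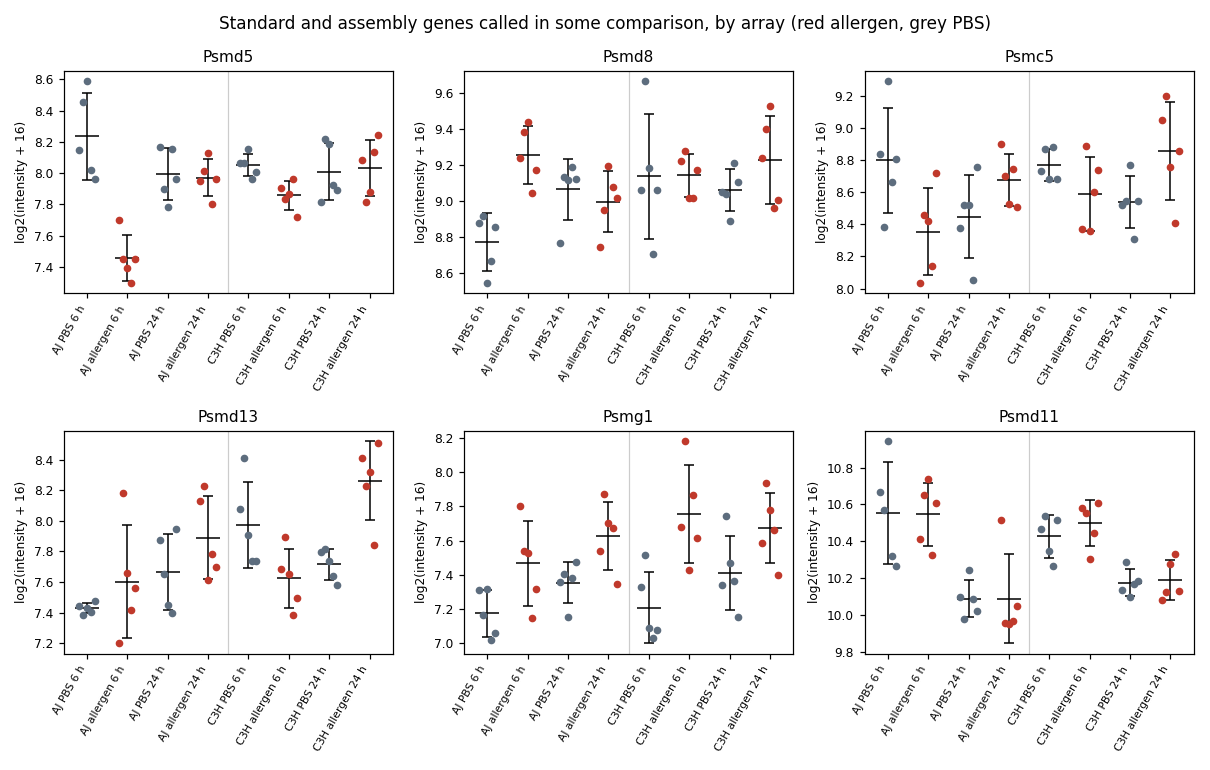
Log2(intensity + 16) of the 6 standard or assembly genes that passed in some comparison, for each of 40 arrays in 8 groups (red allergen, grey PBS), with bars at the mean and whiskers of 1 SD, n = 5. The Psmd5 arrays of AJ with allergen at 6 h lie below all other arrays, and the Psmd11 arrays at 24 h lie mostly below those at 6 h.

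The allergen effect on the immune members could not be shown to differ between strains or times. The difference for Psmb8 between C3H and AJ was 0.23 at 6 h (95% interval -0.15 to 0.62) and 0.18 at 24 h (-0.21 to 0.56). For Psmb10 it was 0.17 at 6 h (-0.32 to 0.66) and 0.29 at 24 h (-0.20 to 0.79). The difference between 24 h and 6 h for Psmb8 was 0.38 in AJ (-0.00 to 0.77) and 0.32 in C3H (-0.06 to 0.71). In these 4 comparisons 0 of 4 immune members passed in limma, and 0 had an unadjusted p under 0.05. The strain difference at 24 h, in which 0.46% of genes passed, was without any called member.

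Without allergen the immune members did not pass in any comparison either. Psmb8 differed between C3H and AJ by -0.11 at 6 h (95% interval -0.39 to 0.16) and -0.06 at 24 h (-0.34 to 0.21). Between 24 h and 6 h in AJ with PBS, Psmb9 was 0.33 higher (0.02 to 0.64) and Psmb10 0.41 higher (0.07 to 0.76), with limma adjusted p of 0.207 and 0.152. Those 2 were the immune members with an unadjusted p under 0.05 among the 4 PBS comparisons.

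Among the standard members, Psmd13 was higher in C3H than in AJ with PBS at 6 h. Its intensities were 158, 152, 157, 154 and 162 in AJ and 254, 324, 224, 198 and 197 in C3H. The groups did not overlap, as in 2.15% of genes that lay wholly higher in C3H, and the AJ arrays lay within a narrow range. The difference was 0.55 ± 0.15 (limma adjusted p = 0.0288), where 4.45% of genes passed and it was the 1 member. The call was lost without AJ replicate 2 or 3 or C3H replicate 1 or 2, with limma adjusted p up to 0.123. It was also lost with median centring (0.0726 in limma) and with only the arrays of the contrast in the fit (0.0748 in limma). A second, dimmer probe set of Psmd13 was 0.18 ± 0.12 higher in C3H and did not pass (limma adjusted p = 0.46 over all probe sets). At 24 h no member passed between the strains, where 1.93% of genes did.

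Psmd11, a lid subunit, was lower at 24 h than at 6 h in AJ with PBS. Its intensities were 1613, 1501, 1953, 1261 and 1217 at 6 h and 1081, 995, 1199, 1072 and 1026 at 24 h. The groups did not overlap, as in 3.14% of genes that lay wholly lower at 24 h. The difference was -0.47 ± 0.11 (limma adjusted p = 0.0085), where 5.37% of genes passed, and without AJ PBS replicate 3 at 6 h its adjusted p in limma was 0.0527. With only the arrays of the contrast in the fit it was 0.0754. The mean log2 level of the muscle markers lay between 7.36 and 8.86 in the 6 h group and between 8.36 and 9.11 in the 24 h group, and with it as a covariate Psmd11 differed by -0.42 (limma adjusted p = 0.0547). In C3H with PBS Psmd11 read 1399, 1471, 1287, 1217 and 1448 at 6 h and 1108, 1236, 1079, 1134 and 1149 at 24 h, a difference of -0.25 that did not pass. In that comparison 3.21% of genes passed and no member did.

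Genes that assemble or regulate the proteasome were taken from a list of 17, of which 13 were measured. In AJ at 6 h 5 fell and none rose, where 12% of all genes were called lower and 7.03% higher. Ublcp1, a phosphatase of the proteasome, fell by 0.79, Akirin2, which carries proteasomes into the nucleus, by 0.63, Ecpas, a scaffold protein of the proteasome, by 0.61, and Ngly1, the glycanase that activates the proteasome transcription factor Nfe2l1, by 0.52. The fifth was the ligase Ube3c. Nfe2l1 itself changed by -0.23 in AJ at 6 h and Pomp, the maturation factor of the core, by 0.18, and neither passed; both are named for their roles, after their values were seen. In AJ at 24 h, C3H at 6 h and C3H at 24 h 0 of 13 passed in limma, where 7.84%, 7.62% and 3.24% of all genes did. In the same order 0, 2 and 1 of the 13 had an unadjusted p under 0.05. Of 11 measured genes of ubiquitin and its delivery, Usp18 rose in AJ at 6 h by 1.41 ± 0.16 and the ubiquitin-like Ubd in C3H at 6 h by 1.03 ± 0.23. The shuttle proteins Ubqln1 and Ubqln2 fell in AJ at 6 h by 0.52 and 0.67. Sqstm1, an autophagy receptor for ubiquitin, fell in AJ at 6 h by 0.39, in AJ at 24 h by 0.36 and in C3H at 24 h by 0.38.

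Class I presentation genes take up the peptides that the proteasome makes. Of 12 measured, 3 rose in AJ at 6 h, 4 in AJ at 24 h, 2 in C3H at 6 h and none in C3H at 24 h, where 5 had an unadjusted p under 0.05 in limma. No gene of the list fell. Of all genes, 7.03%, 4.56%, 3.93% and 2.1% were called higher in these comparisons, in that order. Tap1, a subunit of the peptide transporter, rose by 0.60 ± 0.18 in AJ at 6 h, by 0.59 ± 0.18 in AJ at 24 h and by 0.92 ± 0.18 in C3H at 6 h. In C3H at 24 h it was 0.52 higher with a limma adjusted p of 0.0994. H2-K1, a class I heavy chain, rose in AJ by 0.61 at 6 h and 0.81 at 24 h, H2-M3 by 0.51 and B2m, the light chain, by 0.39 in AJ at 24 h. Tapbpl, an editor of loaded peptides, rose by 0.65 in C3H at 6 h, and the chaperone Calr by 0.25 in AJ at 6 h.

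The interferon list had its largest changes at 6 h. Of 25 measured regulators and targets, 20 rose in AJ at 6 h, 8 in AJ at 24 h, 13 in C3H at 6 h and 6 in C3H at 24 h, and none fell. Of all genes, 7.03%, 4.56%, 3.93% and 2.1% were called higher, in the same order. The list's medians were 0.83, 0.34, 0.53 and 0.22 in the same order, and those of the immune members 0.19, 0.33, 0.40 and 0.59. Cxcl10, a chemokine induced by interferon, rose by 3.37 in AJ at 6 h, 0.83 in AJ at 24 h, 2.68 in C3H at 6 h and 1.58 in C3H at 24 h. Irf1, a transcription factor for the immune subunits, rose by 0.96 in AJ and 0.99 in C3H at 6 h, and at 24 h it was 0.21 and 0.12 higher without passing. It was singled out after its values were seen. Cxcl9, a target of interferon gamma, rose by 2.02, 1.92, 2.65 and 2.19. Mx2, an antiviral GTPase, rose by 2.14 and Iigp1, an immunity-related GTPase, by 1.92 in AJ at 6 h, and Iigp1 rose by 2.24 and the related Igtp by 2.12 in C3H at 6 h. At 24 h Irf7 rose by 1.10 and Iigp1 by 1.0 in AJ, and Iigp1 by 0.99 and Igtp by 0.96 in C3H.

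**Figure D5:**
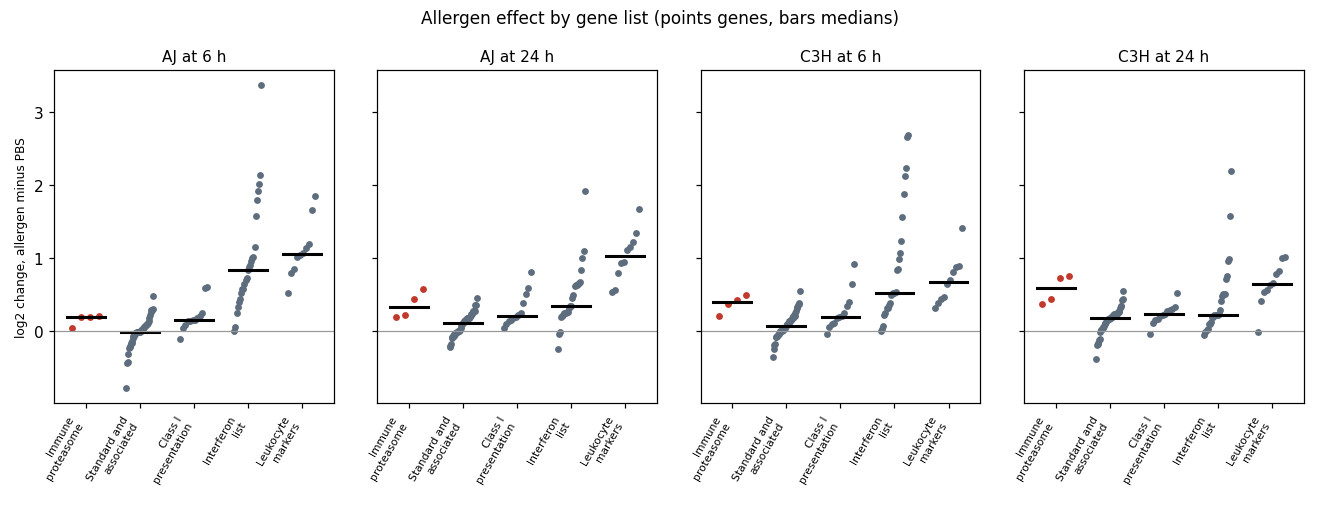
Log2 change, allergen minus PBS, of each gene (points) in 5 lists, with bars at the list medians, in the 4 allergen comparisons. The interferon medians are 0.83, 0.34, 0.53 and 0.22 from left to right, and those of the immune proteasome members (red) are 0.19, 0.33, 0.40 and 0.59.

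Arrays of a group also differed among themselves in the immune members together. Deviations from the group mean were correlated over the 40 arrays, with p-values from 100000 permutations within groups and adjustment over 14 relations. Psmb8 and Psmb9 had a Pearson r of 0.62 (adjusted p = 0.00084) and a Spearman rho of 0.58 (adjusted p = 0.00588). Without the 2 arrays farthest from the median in Psmb8, r was 0.60. In each relation the 2 arrays were chosen by the measure named first, so arrays extreme in the second could stay in. Psmb10 and Psme1 had r = 0.65 (adjusted p = 0.00245), rho = 0.56 (adjusted p = 0.00588) and r = 0.47 without the 2. Psmb8 and Psmb10 had r = 0.56 (adjusted p = 0.00271), rho = 0.50 (adjusted p = 0.0188) and r = 0.65 without the 2. Points share the scaling of their array. The median r was 0.51 for the 6 pairs of immune members. It was 0.14 for 861 pairs of standard members, which ran from -0.67 to 0.84. For 168 pairs of an immune with a standard member it was 0.12, from -0.47 to 0.63.

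For the remaining 3 pairs of immune members r was 0.46 (Psmb8 with Psme1, adjusted p = 0.0301), 0.39 (Psmb9 with Psme1, adjusted p = 0.0308) and 0.38 (Psmb9 with Psmb10, adjusted p = 0.0388). Their rho was 0.40, 0.42 and 0.35, with adjusted p of 0.0406, 0.0378 and 0.0566, and without the 2 farthest arrays r was 0.45, 0.39 and 0.27. The leukocyte marker mean had r = 0.43 with Psmb8 (adjusted p = 0.0388), rho = 0.42 (adjusted p = 0.0378) and r = 0.32 without the 2. With Psmb9, Psmb10 and Psme1 its r was 0.29, 0.16 and 0.08 (adjusted p = 0.141, 0.399 and 0.62), with rho of 0.22, 0.18 and 0.16. The interferon mean had r of 0.36, 0.36, 0.12 and 0.25 with Psmb8, Psmb9, Psmb10 and Psme1 (adjusted p = 0.0838, 0.0838, 0.557 and 0.141). Its rho with Psme1, 0.40, had an adjusted p of 0.0378, and its other rho were 0.38, 0.39 and 0.22.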

How the data were processed

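Total RNA of whole mouse lung was measured on 40 one-colour arrays. The deposited table gives a linear intensity for each probe set on each array. Its trimmed means, with 2 percent cut from either tail, were 150.036 to 150.046, so the authors had scaled the arrays alike. The software is not given in the sources used here. Array medians ran from 63.7 to 81.3. No 2 arrays held identical values.

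Of 22690 probe sets, 64 were controls, 20380 had 1 symbol in the platform annotation, 691 had several and 1555 none. Tests used the brightest probe set per gene, by mean log2(intensity + 16), and 21 of 48 members had more than 1 among 85 probe sets. A linear model of 8 group means over all 40 arrays was fitted with limma 3.58.1 in R 4.3.3, for 12 contrasts. Pair gaps used exact permutation. Members, lists, tests and the rule for named genes (the immune members, their counterparts, the passing members and the 4 largest passing genes of each list) were chosen with earlier results of these data known. Promoter windows were from RefSeq, GRCm38.p6.

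Tested on simulated data for C3H at 24 h with 12393 genes, the fit found 42% of genes shifted by 0.5 and 94% of genes shifted by 1.0 (log2), and made 12 false calls. The simulated noise was normal and independent between genes, while genes on these arrays can vary together. These rates may therefore not carry over to the data. The number of arrays limits the precision. Alternatives tried were median centring or quantile normalization, a pseudocount of 1 or 64, the mean of all probe sets, leaving out the 25% dimmest genes, a replicate block, the arrays of 1 contrast alone, the muscle marker mean as a covariate and leaving out each array. Replicate numbers in the titles are not stated to pair the arrays and served as a block only in that alternative.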

Additional observations from a re-analysis of the deposited data

Results flagged for a closer look

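In 9 of 128 checks (16 genes or probe sets in 8 groups) 1 array stood apart from the other 4 of its group, by Dixon's criterion, which chance meets in about 1 of 20 groups. In C3H with PBS at 6 h, replicate 2 was high for Psmb9, at a log2 level of 8.13 against 7.69 to 7.79, and for Psme1, at 10.09 against 9.18 to 9.42, and replicate 4 was low for Psmb7, at 9.83 against 10.27 to 10.33. Replicate 2 of that group also had its lowest leukocyte marker mean, 8.42, with others up to 8.81. Its alveolar epithelial mean, 11.67, was the highest, with others down to 11.48. It was at neither end for the muscle markers, and why it stood apart was not tested. In C3H with allergen at 6 h, replicate 2 was high for Psmb6, at 9.48 against 9.08 to 9.18, and for the probe set shared by Psme2 and Psme2b, at 9.55 against 8.92 to 9.02. In AJ with allergen at 24 h, replicate 2 was high for Psmb8, at 9.38 against 8.89 to 9.02, replicate 1 for Psmd11, at 10.52 against 9.95 to 10.05, and replicate 5 low for Psmb6, at 8.74 against 9.06 to 9.17. In AJ with PBS at 24 h, replicate 1 was low for Psmd8, at 8.77 against 9.12 to 9.19.

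The effect of allergen differed between groups in 3 tests in limma. For Psmd5 the strain difference at 6 h was 0.59 (adjusted p = 0.0322) and the time difference in AJ 0.76 (adjusted p = 0.00181). For Psmd13 the time difference in C3H was 0.90 (adjusted p = 0.0311).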

How the results depend on the processing

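Apart from leaving out arrays, 492 values under the alternatives kept their direction and their side of the threshold, 23 lost a call, 2 gained one and 3 turned sign. On leaving out an array, 523 values were kept, 70 lost a call, 5 gained one and 12 turned sign. Both totals include many values that were not called in the main fit and had no call to lose. Psmb8 kept its call at 24 h in both strains under every alternative run, as did Psmd5 and Psmd8 in AJ at 6 h. The cause of the changes below was not tested.

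Only larger changes in the count of called members are listed here, and a shift from 3 to 2 or to 4 was treated as none. The lost calls of Psmc5 in AJ at 6 h and of Psmd13 in C3H at 24 h, given above, are therefore not listed. The share of all genes called under each alternative is not given beside these counts. Whether calling shifted for all genes alike can therefore not be read from them. Quantile normalization gave 0 for the strain difference at 6 h and 2 for 24 h against 6 h with PBS in C3H. Median centring gave 1 in C3H at 6 h, 0 for the strain difference at 6 h and 0 for C3H against AJ with PBS at 6 h. A pseudocount of 64 gave 2 for the time difference in AJ, 2 for 24 h against 6 h with PBS in AJ and 1 in C3H. The mean of all probe sets gave 0 for the time difference in C3H, and 2 at 6 h and 1 at 24 h for C3H against AJ with PBS. Without the 25% dimmest genes 2 were called for the time difference in AJ and 2 for 24 h against 6 h with PBS in AJ. With only the arrays of the contrast, 0 were called in C3H at 6 h, for the strain difference at 6 h, for the time difference in C3H, for C3H against AJ with PBS at 6 h and for 24 h against 6 h with PBS in AJ, and 2 for the time difference in AJ. With the muscle marker mean as a covariate, the time difference in AJ had 2, and 24 h against 6 h with PBS had 0 in AJ and 1 in C3H. Adjusted over all probe sets, an alternative chosen after seeing the data, C3H at 6 h had 1. With the replicate number as a block, AJ at 24 h had 2, the time difference in AJ 2 and 24 h against 6 h with PBS in C3H 1. The labels used here do not say whether the numbers pair the arrays. Over 8 comparisons, same-numbered arrays correlated in their deviations between -0.26 and 0.26, which with 5 pairs in each cannot exclude a pairing. In no comparison did more than 2 of 5 pairs correlate best with their own number.

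For the pairs, quantile normalization gave Psmb8 against Psmb5 0.37 in AJ at 6 h and Psmb9 against Psmb6 0.49 in C3H at 6 h, which passed, and Psmb10 against Psmb7 0.49 in AJ at 24 h, which did not. A pseudocount of 64 gave Psmb10 against Psmb7 0.42 in AJ and 0.45 in C3H at 24 h, and Psmb8 against Psmb5 0.45 in C3H at 24 h, none of which passed. Turned in sign were Psmb7 at -0.050 and Psme1 at -0.018 in AJ at 6 h with quantile normalization, and Psme3 at 0.18 in AJ at 24 h with the mean of all probe sets.

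Leaving out arrays gave 2 to 4 called members in AJ at 6 h, 1 to 2 in AJ at 24 h (2 without PBS replicate 5), 1 to 4 in C3H at 6 h and 1 to 4 in C3H at 24 h (1 without allergen replicate 2). It gave 0 to 1 for the strain difference at 6 h, 1 to 2 for the time difference in AJ, 0 to 1 for that in C3H, 0 to 2 for C3H against AJ with PBS at 6 h, and 0 to 3 in AJ and 0 to 1 in C3H for 24 h against 6 h with PBS. These counts too stand without the share of all genes called in each leave-out. The pair Psmb8 against Psmb5 ranged from 0.22 to 0.40 in AJ at 6 h and from 0.44 to 0.62 in C3H at 24 h, Psmb9 against Psmb6 from 0.35 to 0.58 in C3H at 6 h, and Psmb10 against Psmb7 from 0.37 to 0.54 in AJ at 24 h. Signs turned 12 times, in changes that never passed: these ran for Psmb5 in C3H at 6 h from -0.19 to 0.056, Psmb6 in AJ at 24 h from -0.055 to 0.074, Psmb6 in C3H at 6 h from -0.10 to 0.16, Psmb7 in AJ at 6 h from -0.013 to 0.078, Psmb7 in C3H at 6 h from -0.0015 to 0.14, Psme1 in AJ at 6 h from -0.023 to 0.13, Psme3 in AJ at 24 h from -0.13 to 0.018, Psme3 in AJ at 6 h from -0.18 to 0.046 and Psme3 in C3H at 24 h from -0.20 to 0.022.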

Other observations

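A second, nearly as bright probe set of Psma7, an alpha subunit of the core, rose in C3H at 24 h by 0.42 ± 0.12 (limma adjusted p = 0.0485 over all probe sets), where the brightest one was 0.44 ± 0.19 higher and did not pass (adjusted p = 0.238). It was singled out after its values were seen. Of 17 members with more than 1 probe set above a mean intensity of 50, the probe sets shared a sign in 9 in AJ at 6 h and in 10 in C3H at 24 h. For 24 h against 6 h with PBS in AJ, a second probe set of Psmd11 also fell, by 0.44 ± 0.11 (limma adjusted p = 0.0199 over all probe sets), and 4 further ones, down to one dim set, ran from -0.24 to 0.00 and did not pass.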
